A study of Mus musculus with 10 samples.

Results

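The mitotic spindle and checkpoint genes examined here are 40 genes of cell division, named by gene symbol and read from all 10 libraries of a count table and an FPKM table that each list 54532 mouse genes. All 40 symbols matched 1 gene ID each, and all 40 passed the low-count filter of every test. The RNA came from lines of strain 129SV and was sequenced after poly-T selection. Ploidy and p53 genotype are those of the labels. The genotype label P53 - is read as a p53 knockout (p53-KO), a reading that Trp53 and Cdkn1a RNA did not bear out in the haploid EpiSC. Epiblast stem cells (EpiSC) labelled haploid and p53-KO gave 2 libraries, from the lines haEpi1 and haEpi5, whose titles name no knockout. EpiSC labelled diploid and p53-KO (diploid p53-KO EpiSC) gave 1 library. Wild-type diploid EpiSC gave 2 libraries, 1 from a male line and 1 from a line titled fema, taken to mean female. EpiSC are pluripotent lines with the character of the post-implantation epiblast. Epiblast-like cells (EpiLC), a short-lived state made by moving embryonic stem cells towards that epiblast, gave 1 haploid p53-KO library and 1 haploid wild-type library. Embryonic stem cells (ESC), the naive pluripotent state, gave 1 haploid and 1 diploid library, both wild type. The only differentiated cells were wild-type diploid mouse embryonic fibroblasts (MEF), with 1 library. Ploidy was compared within EpiSC labelled p53-KO and within ESC because haploid mammalian cells tend to become diploid in culture.

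As background, a cell enters mitosis when cyclins A and B activate the kinase CDK1 against the brake of WEE1, with CDC25 phosphatases releasing the brake. Polo and Aurora kinases then build a bipolar spindle, and kinetochores attach chromosomes to its microtubules. Kinetochores without attachment keep the spindle checkpoint on, which holds back CDC20 and the anaphase-promoting complex. Once the checkpoint is satisfied, that complex destroys securin and cyclin B, separase cuts cohesin, and the central spindle directs cytokinesis. A haploid cell that fails one of these last steps can re-enter the cycle with a doubled genome. Most of these genes are transcribed late in the cycle, repressed by the DREAM complex in resting cells and activated by MYBL2 and FOXM1, through a promoter element called the cell cycle genes homology region (CHR) and nearby CCAAT boxes bound by NF-Y.

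The CHR and CCAAT letters were looked for in promoter windows of RefSeq (build GRCm38.p6) that run from 250 bases before to 50 bases after an annotated start. Windows were found for 33 of the 40 genes; the others were Aurkb, Ccna2, Cdc25c, Incenp, Kif20a, Tpx2 and Wee1. The CHR, searched as TTTGAA on both strands, was present for 24 of the 33 genes (72.7%), against 20.2% of the 27025 genes in the table. CCAAT on both strands was present for 26 of 33 (78.8%), against 41.1% of all genes. Both were present for 21 of 33, against 8.97% of all genes. The variant TTTAAA was present for 10 of 33 (30.3%), against 14.9% of all genes. The search found neither TTTGAA nor CCAAT for Birc5, Mad2l1, Nuf2 and Pttg1, and CCAAT without TTTGAA for Bub1, Ccnb1, Cdc25b, Cenpe and Nek2. CCAAT can share 1 end base with either of the other motifs, and TTTGAA and TTTAAA share none; a match is a match of letters in this window only. The sequences below run from 130 bases before to 50 bases after the start. The first 5 (Ccnb2, Cdk1, Cdc20, Espl1 and Kif11) hold CHR and CCAAT letters together, and Ccnb1 holds the TTTAAA variant with CCAAT. Cdc25b holds CCAAT without a CHR, and its level in MEF was above that of every pluripotent library but diploid p53-KO EpiSC. The sequences are written 5′ to 3′ along the gene, with the matches on either strand in capitals.
Ccnb2, chr9:70421505-70421684, minus strand: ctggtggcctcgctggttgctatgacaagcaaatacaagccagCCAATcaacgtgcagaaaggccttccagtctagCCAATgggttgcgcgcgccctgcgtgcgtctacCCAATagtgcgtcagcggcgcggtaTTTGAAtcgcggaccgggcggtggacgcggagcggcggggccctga
Cdk1, chr10:69352863-69353042, minus strand: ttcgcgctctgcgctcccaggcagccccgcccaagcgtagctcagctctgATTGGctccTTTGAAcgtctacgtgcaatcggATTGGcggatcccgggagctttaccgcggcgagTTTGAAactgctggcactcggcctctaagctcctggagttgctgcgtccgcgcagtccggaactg
Cdc20, chr4:118437294-118437473, minus strand: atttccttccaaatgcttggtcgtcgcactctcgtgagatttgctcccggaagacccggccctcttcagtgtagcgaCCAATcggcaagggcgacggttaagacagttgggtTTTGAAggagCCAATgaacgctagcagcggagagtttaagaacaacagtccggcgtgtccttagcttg
Espl1, chr15:102296163-102296342, plus strand: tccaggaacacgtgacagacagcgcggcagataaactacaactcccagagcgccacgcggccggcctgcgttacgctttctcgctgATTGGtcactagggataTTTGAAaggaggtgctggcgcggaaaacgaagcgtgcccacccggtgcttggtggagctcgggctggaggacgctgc
Kif11, chr19:37376252-37376431, plus strand: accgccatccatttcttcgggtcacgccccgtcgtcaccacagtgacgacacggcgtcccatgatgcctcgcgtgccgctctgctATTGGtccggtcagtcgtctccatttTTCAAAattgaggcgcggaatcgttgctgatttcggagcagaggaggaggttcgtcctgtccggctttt
Ccnb1, chr13:100786437-100786616, minus strand: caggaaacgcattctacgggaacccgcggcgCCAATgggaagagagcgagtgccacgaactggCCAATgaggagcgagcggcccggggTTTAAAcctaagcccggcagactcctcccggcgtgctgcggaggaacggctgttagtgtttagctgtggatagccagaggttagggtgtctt
Cdc25b, chr2:131186818-131186997, plus strand: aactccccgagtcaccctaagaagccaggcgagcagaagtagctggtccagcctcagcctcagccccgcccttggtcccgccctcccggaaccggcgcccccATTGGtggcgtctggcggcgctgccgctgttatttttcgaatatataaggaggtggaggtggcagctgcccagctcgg

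**Figure D1:**
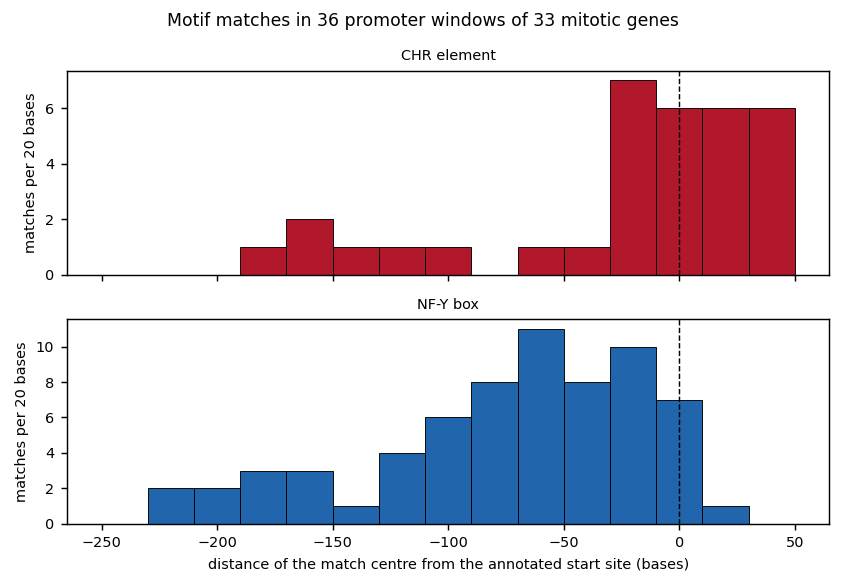
Distance of each CHR match (TTTGAA, upper panel) and each CCAAT match (the NF-Y box, lower panel) from the annotated start site, in bases, over 36 promoter windows of 33 mitotic genes; bar height is the number of matches per 20 bases on either strand. CHR matches lie mostly from 30 bases before the start onwards, and CCAAT matches lie mostly further upstream.

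In Ccnb2 the CHR match that is shown is centred 7 bases after the start, below 3 CCAAT boxes centred at -84.5, -51.5 and -18.5 bases from it. In Espl1 and Kif11 the CHR match is centred at -24 and -16 bases from the start, with 1 CCAAT match upstream, which lies on the strand opposite the CHR match in Espl1 and on the same strand in Kif11. The Cdk1 window shows 2 CHR matches, centred at -68 and -12 bases from the start. The level of these genes in each library follows.

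All 40 genes were well measured. Per gene length, the mean deposited FPKM over the 9 pluripotent libraries ran from 6.79 for Ndc80, which encodes a microtubule-binding protein of the outer kinetochore, to 141 for Cdc20, which encodes an activator of the anaphase-promoting complex. Top2a (topoisomerase II, which untangles sister chromatids) followed at 87.2 FPKM, Ccnb1 (cyclin B1) at 83.5 FPKM, Ccnb2 (cyclin B2) at 69.0 FPKM and Ube2c (the ubiquitin-conjugating enzyme of that complex) at 68.4 FPKM. At the low end, next to Ndc80, stood its partner Nuf2 at 6.97 FPKM and the phosphatase gene Cdc25b at 7.97 FPKM. Between the highest and the lowest pluripotent library a gene varied 1.93-fold at the median, from 1.44-fold for Racgap1 to 3.56-fold for Cenpf.

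To compare libraries, each gene's level was expressed as TMM-normalised counts-per-million (CPM) and set against its own mean over the 10 libraries on the log2 scale. The median of these deviations over the 40 genes was 0.44 in haploid wild-type EpiLC, 0.34 in diploid ESC, 0.25 in diploid p53-KO EpiSC, 0.20 in haploid p53-KO EpiLC and 0.17 in male wild-type EpiSC. It was -0.04 in haEpi5, -0.05 in haploid ESC, -0.09 in female wild-type EpiSC, -0.27 in haEpi1 and -0.91 in MEF. The haploid wild-type EpiLC library held the highest level of 17 genes, diploid ESC of 10, diploid p53-KO EpiSC of 6, male EpiSC of 5 and haploid p53-KO EpiLC of 2. MEF held the lowest level of 36 genes. The remaining 4 minima were Cenpe and Cenpf in haEpi5 and Cdc25b and Nuf2 in diploid ESC.

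**Figure D2:**
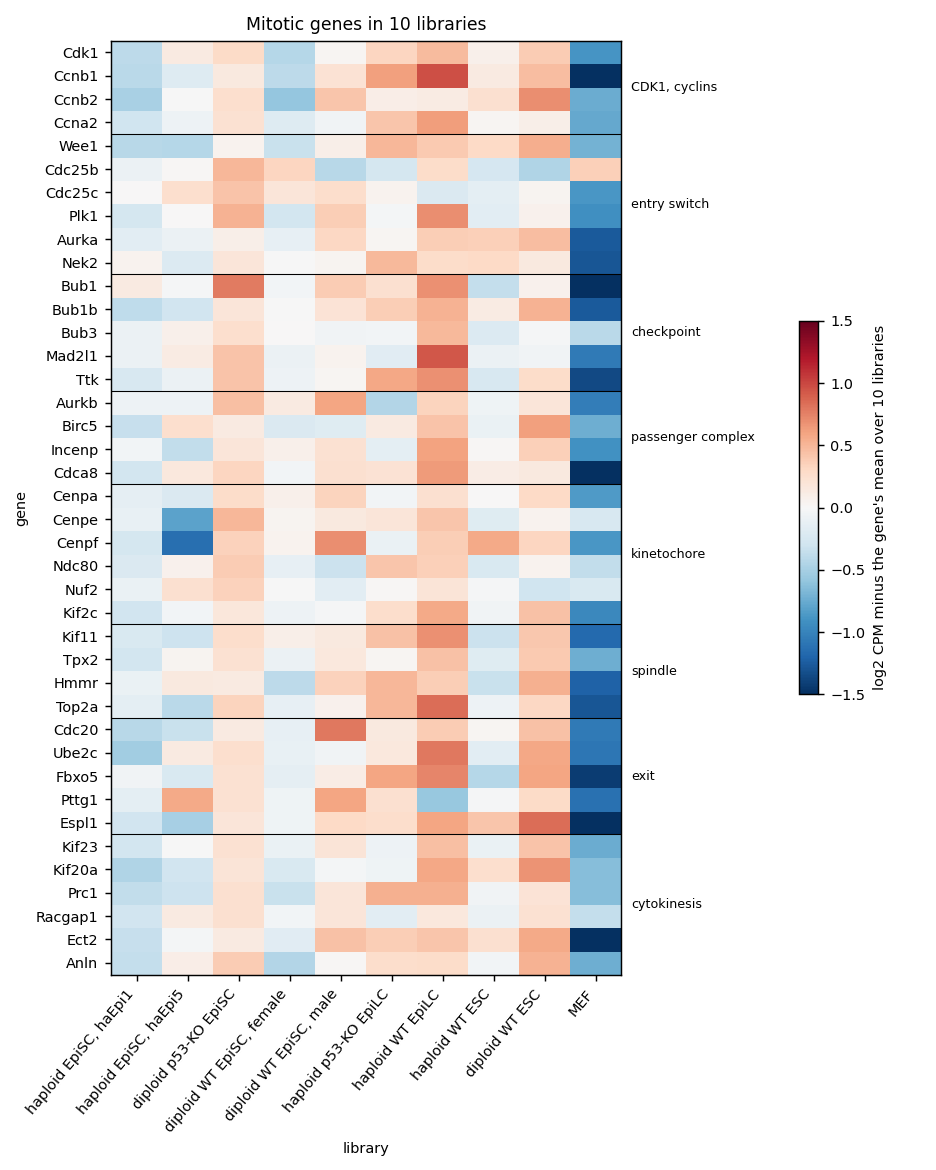
Level of each of the 40 genes (rows, grouped by role) in each of the 10 libraries (columns) as log2 CPM minus the gene's mean over the libraries; red is above and blue below that mean, and colours saturate at 1.5. The MEF column is blue for nearly all rows, and the haEpi1 column is mostly pale blue, while diploid p53-KO EpiSC and haploid wild-type EpiLC are mostly red.

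Total counts ran from 15862113 to 18814003 per library, so counting error was small beside the differences between libraries: chi-square over genes was 73.7 per degree of freedom between haEpi1 and haEpi5 and 69.6 between the female and male EpiSC libraries. These pairs differ in line or sex, so p-values measure the spread between such samples. Among the 40 genes, the male library exceeded the female one in 36, with a median log2 difference of 0.24 and a range from -0.74 (Cdc25b) to 0.99 (Ccnb2). haEpi1 exceeded haEpi5 in 12 and was lower in 28, with a median of -0.18 and a range from -0.72 (Pttg1) to 0.87 (Cenpf). Naive markers summed to 15.4 to 35.5 CPM in EpiSC, against 1174 and 2547 CPM in ESC, and post-implantation epiblast markers to 893 to 1654 CPM in EpiSC, against 269 to 273 CPM in ESC. Naive markers also summed to 495 CPM in haploid p53-KO EpiLC, against 63.9 CPM in haploid wild-type EpiLC. Trp53, the targeted gene, had 50.5 and 61.8 CPM in the lines haEpi1 and haEpi5, 2.17 CPM in diploid p53-KO EpiSC and 32.9 CPM in p53-KO EpiLC, against 28.5 to 375 CPM in the 6 wild-type libraries. Cdkn1a, a transcriptional target of p53 that encodes the CDK inhibitor p21, had 71.3 and 104 CPM in the lines haEpi1 and haEpi5, 4.34 CPM in diploid p53-KO EpiSC and 12.0 CPM in p53-KO EpiLC, against 70.8 to 215 CPM in the wild-type libraries. For both genes haEpi1 and haEpi5 lay inside the wild-type range over all cell types, and the diploid p53-KO library lay below it. The p53-KO EpiLC library lay below that range for Cdkn1a alone. That range is wide for Trp53: its lower end, 28.5 CPM, came from haploid wild-type ESC and lay below p53-KO EpiLC. For Cdkn1a, haEpi1 lay just above the lower end. Against wild-type EpiSC only, the haploid lines had lower values in both genes (log2 -1.06 for Trp53 and -0.41 for Cdkn1a). Against the wild-type EpiLC library, p53-KO EpiLC was lower in both genes, with log2 ratios from -3.43 to -3.26. The levels of these 2 RNAs in haEpi1 and haEpi5 thus did not bear out their p53 label. RNA level alone does not settle the genotype, and neither the Trp53 sequence nor the protein was examined.

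The EpiSC libraries labelled haploid and p53-KO had lower values than diploid p53-KO EpiSC for 39 of the 40 mitotic genes, by a median of 0.75-fold, but no gene passed the test. These libraries also differed in Trp53 (log2 4.70, SE 1.12; edgeR adjusted p = 0.634) and Cdkn1a (log2 4.35, SE 0.66; edgeR adjusted p = 0.381), both higher in each haploid line, with unadjusted p of 0.00457 and 0.000419 in edgeR's test. Ploidy and these differences in Trp53 and Cdkn1a cannot be told apart in this comparison. The median log2 fold change was -0.41, against 0.05 over all genes tested, and the values ran from -0.97 (Cenpf) to 0.04 (Pttg1). edgeR's quasi-likelihood test with Benjamini-Hochberg adjustment called 0 of 40 genes, with a lowest adjusted p of 0.886, and 0% of all 18153 genes. 1 gene had an unadjusted p under 0.05 (Cenpe), as did 5.55% of all genes; DESeq2 and limma called 0 of the 40. Negative values made up 46.3% of all genes, and 49.9% of genes averaging at least 20 CPM. Both haploid lines lay below the diploid library in 37 of 40 genes, against 33.6% of all genes. The diploid side is 1 library, assumed to vary like the replicated groups, and the fit has 2 residual degrees of freedom.

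**Figure D3:**
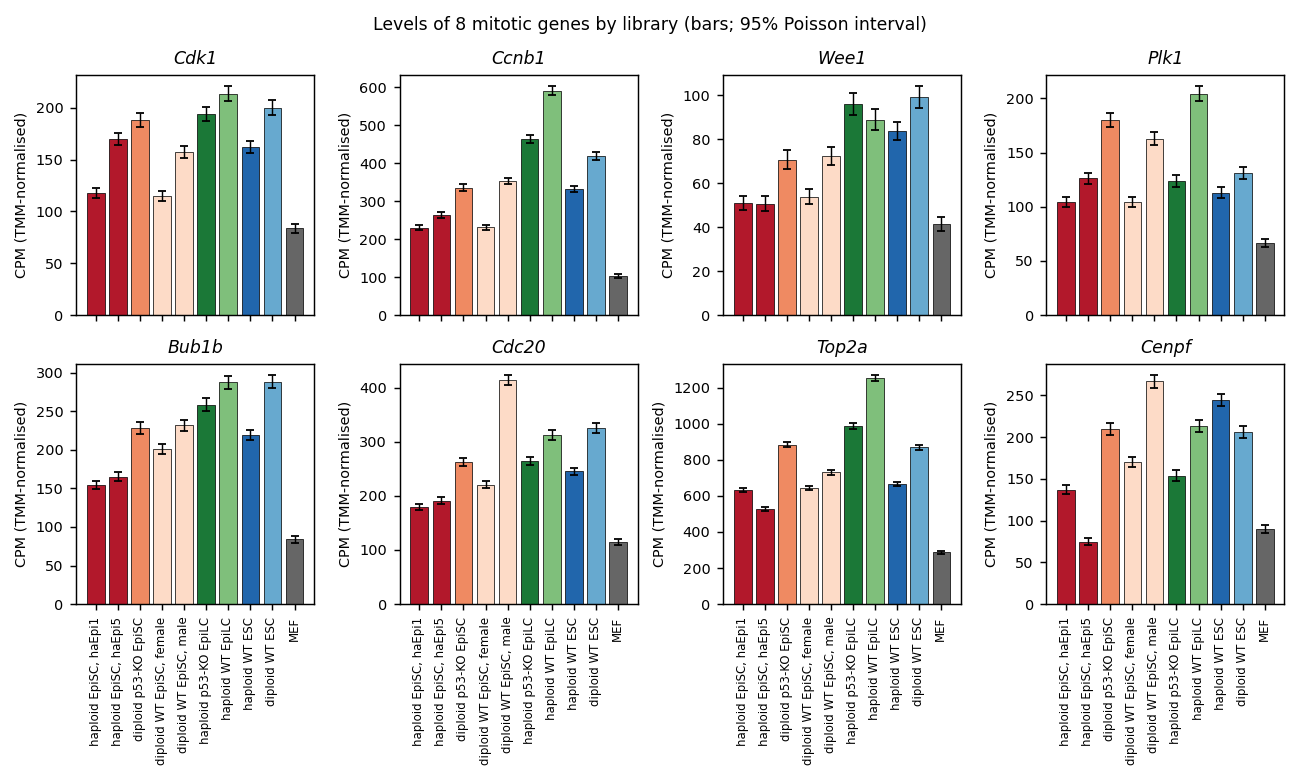
TMM-normalised CPM of 8 mitotic genes in the 10 libraries, 1 bar per library with its 95% Poisson interval, from a baseline of 0. Cdk1, Ccnb1, Wee1, Plk1, Bub1b, Cdc20, Top2a and Cenpf were each lower in haEpi1 and in haEpi5 than in diploid p53-KO EpiSC, and all but Cenpf had their lowest bar in MEF.

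Among the genes of CDK1 and its cyclins, all 4 were lower in haEpi1 and haEpi5 than in diploid p53-KO EpiSC, with log2 fold changes from -0.46 to -0.37. Cdk1 (chr10:69335146-69352938, mm10) had 118 CPM in haEpi1 and 170 CPM in haEpi5, against 188 CPM in the diploid p53-KO library. Ccnb1 (chr13:100778650-100786570) had 230 and 265 CPM in haEpi1 and haEpi5, against 336 CPM in the diploid library. The haploid lines lay below the diploid library in both genes, and in Cdk1 haEpi1 was below haEpi5 by a log2 difference of -0.53. For Ccnb2 the haploid lines gave 70.2 and 97.8 CPM, against 117 CPM in the diploid library.

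The 6 genes of the entry switch had log2 fold changes from -0.63 (Plk1) to -0.19 (Aurka). Plk1, the polo-like kinase of spindle assembly, had 105 CPM in haEpi1 and 126 CPM in haEpi5, against 180 CPM in diploid p53-KO EpiSC. Wee1, whose kinase inhibits CDK1, had 50.9 and 50.6 CPM in haEpi1 and haEpi5, against 70.7 CPM in diploid p53-KO EpiSC. Cdc25b, which encodes a phosphatase of the opposite action, had 28.7 and 30.8 CPM in the haploid lines, against 42.9 CPM in the diploid line. The gene of the inhibitor and that of the activator thus had values on the same side of the diploid library. Aurka, the Aurora kinase of the spindle poles, differed least, with 97.4 and 102 CPM in the haploid lines, against 115 CPM in the diploid one.

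Spindle checkpoint genes had the lowest median of the 8 roles, -0.50 over 5 genes. The medians of the 8 roles lay close together, from -0.50 to -0.36, and their order was not tested. Bub1, a checkpoint kinase of the kinetochore, had 171 CPM in haEpi1 and 153 CPM in haEpi5, against 268 CPM in diploid p53-KO EpiSC, a log2 fold change of -0.71 (SE 0.31; edgeR adjusted p = 0.904). The diploid p53-KO library held the highest Bub1 level of all 10 libraries. In the wild-type EpiSC, Bub1 stood at 151 CPM (female) and 202 CPM (male), on either side of the haploid lines. Bub1b, which encodes the inhibitor BUBR1, had 154 and 165 CPM in haEpi1 and haEpi5, against 228 CPM in the diploid line. Ttk, whose kinase starts checkpoint signalling, had 55.6 and 61.5 CPM in the haploid lines, against 88.4 CPM in the diploid line. Mad2l1, which encodes the CDC20 inhibitor MAD2, had 94.4 and 109 CPM in the haploid lines, against 136 CPM in the diploid line. Bub3, the partner of BUB1 and BUBR1, was the closest to equal, with a log2 fold change of -0.24.

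The chromosomal passenger complex, which corrects wrong attachments and later marks the cleavage site, gave log2 fold changes from -0.50 (Aurkb, its kinase) to -0.14 (Birc5, survivin). Aurkb had 77.5 and 77.3 CPM in haEpi1 and haEpi5, against 111 CPM in diploid p53-KO EpiSC. Birc5 had 76.3 CPM in haEpi1 and 116 CPM in haEpi5, which lie on either side of the 107 CPM of the diploid line. Kinetochore genes held the lowest 2 values. Cenpf (chr1:189640606-189688086), a large protein of the outer kinetochore, had 137 CPM in haEpi1 and 74.9 CPM in haEpi5, against 209 CPM in the diploid line (log2 -0.97, SE 0.44, edgeR adjusted p = 0.909). Cenpe, the motor that carries chromosomes to the spindle equator, had 105 CPM in haEpi1 and 65.3 CPM in haEpi5, against 160 CPM in the diploid line (log2 -0.90, SE 0.35, edgeR adjusted p = 0.886). In both genes haEpi5 was the lowest of all 10 libraries, MEF included, whereas haEpi1 was closer to the female wild-type EpiSC library, which had 170 CPM of Cenpf and 117 CPM of Cenpe. Cenpa, the histone variant of the centromere, had 117 and 110 CPM in the haploid lines, against 156 CPM in the diploid line.

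Top2a had the most negative value of the 4 spindle and chromosome genes, -0.59, with 635 CPM in haEpi1 and 529 CPM in haEpi5, against 884 CPM in diploid p53-KO EpiSC. Kif11, the motor that pushes the spindle poles apart, had 132 and 125 CPM in the haploid lines, against 186 CPM in the diploid line. Hmmr, a protein of spindle microtubules, had 118 and 139 CPM in the haploid lines, against 138 CPM in the diploid line, so that haEpi5 was level with it. Of the exit genes, Cdc20 had 179 CPM in haEpi1 and 191 CPM in haEpi5, against 262 CPM in the diploid line. Espl1, the gene of separase, had 146 and 127 CPM in the haploid lines, against 202 CPM in the diploid line. Pttg1, the gene of securin, had 45.7 CPM in haEpi1 and 75.2 CPM in haEpi5, against 59.6 CPM in the diploid line, and was the only one of the 40 with a positive value (0.04). Thus the haploid lines enclosed the diploid library for securin and lay below it for separase.

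The remaining exit genes, Ube2c and Fbxo5, lay on the same side as Cdc20. Ube2c had 112 CPM in haEpi1 and 177 CPM in haEpi5, against 192 CPM in diploid p53-KO EpiSC, and Fbxo5 had 64.5 and 57.3 CPM in the haploid lines, against 78.5 CPM in the diploid line. The 6 cytokinesis genes ranged from -0.57 (Prc1, which bundles the central spindle) to -0.28 (Racgap1, a subunit of centralspindlin). Prc1 had 91.4 and 95.5 CPM in the haploid lines, against 140 CPM in the diploid line. Kif20a, a motor of the central spindle, had 98.9 and 110 CPM in haEpi1 and haEpi5, against 154 CPM in the diploid line. In both genes the haploid lines lay closer to each other than to the diploid library. Anln, a scaffold of the cleavage furrow, had 161 CPM in haEpi1 and 221 CPM in haEpi5, against 268 CPM in the diploid line. The centralspindlin motor gene Kif23 had 91.9 and 111 CPM in the haploid lines, against 131 CPM in the diploid line, and its partner Racgap1 had 133 and 178 CPM in the haploid lines, against 191 CPM in the diploid line. Ect2 had 112 and 138 CPM in the haploid lines, against 155 CPM in the diploid line. In these 4 genes haEpi1 was the lower of the haploid lines, and both lay below the diploid library.

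Fibroblast markers moved with these libraries: all 10 were present in each p53-KO EpiSC library, and their sum was 810 CPM in haEpi1 and 1592 CPM in haEpi5, against 1138 CPM in the diploid line, which is 1.34%, 2.64% and 1.89% of the MEF sum. That sum lay on either side of the diploid line, but gene by gene 8 of the 10 markers had higher values in the haploid lines, with a median log2 fold change of 2.28. Of these, 6 had an unadjusted p under 0.05 (Thy1, Postn, Dcn, Lum, Twist2 and Prrx1) and edgeR called 0 after adjustment, while Col1a1 (-0.25) and Col1a2 (-0.72) had negative values. Post-implantation epiblast markers were lower in 5 of 6, with a median of -0.69. The part of fibroblast RNA in the mitotic values was not tested. In these bulk libraries, fewer cells in mitosis and less mitotic RNA per cell cannot be told apart, and levels are shares of the library, so RNA per genome was not measured.

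**Figure D4:**
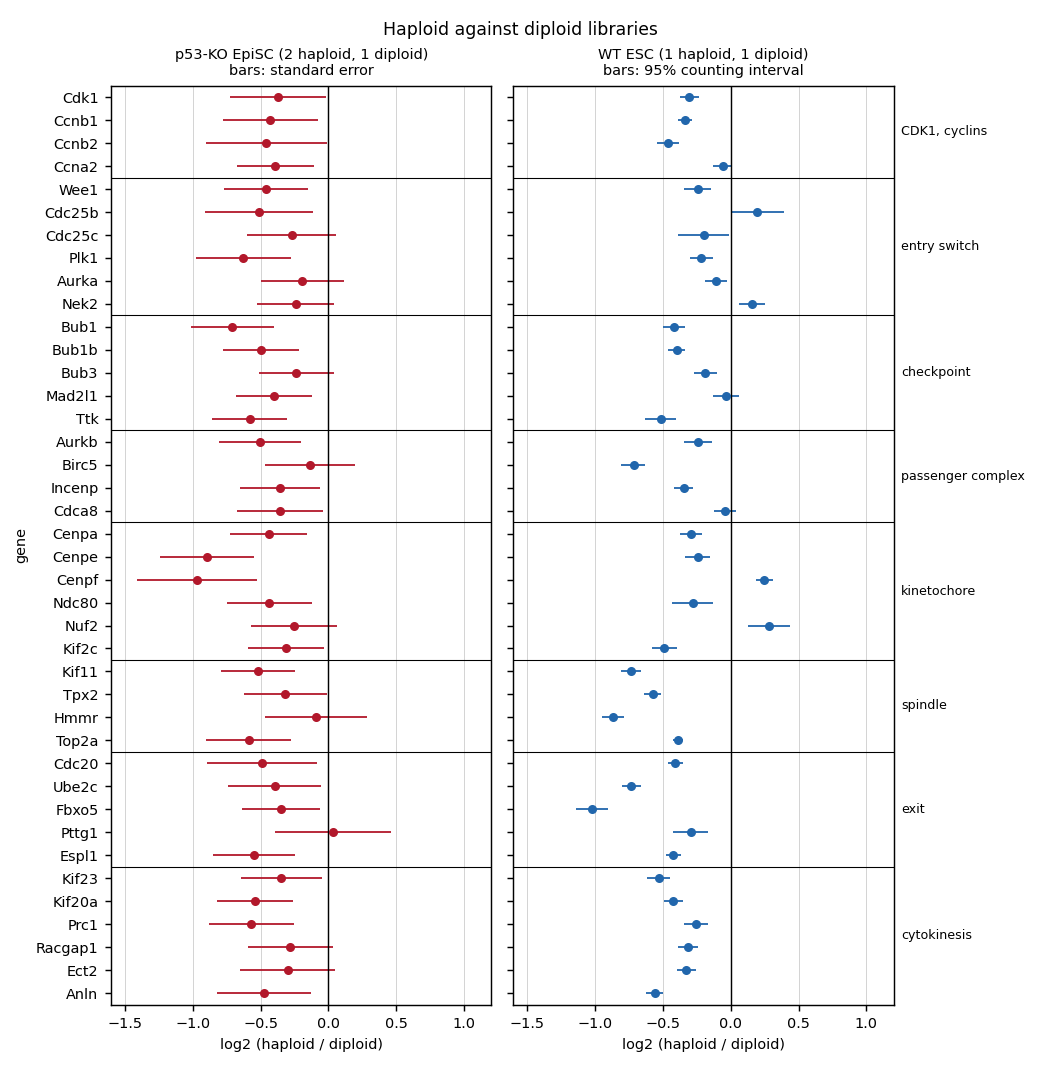
Log2 ratio of haploid over diploid libraries for the 40 genes, grouped by role: left, EpiSC labelled p53-KO (2 haploid, 1 diploid; bars are the standard error of edgeR's fit); right, wild-type ESC (1 haploid, 1 diploid; bars are the 95% counting interval only). Left of 0 lie 39 genes in EpiSC and 36 in ESC, and no EpiSC value passed the test.

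Within ESC, the haploid library had lower values than the diploid library for 36 of the 40 genes, by a median of 0.80-fold. The median log2 ratio was -0.32, against 0.05 over all genes, and values ran from -1.02 (Fbxo5) to 0.28 (Nuf2). With 1 library a side there is no replicate check and no test. Negative ratios made up 46.4% of all genes and 52.3% of genes averaging at least 20 CPM. The counting interval lay below 0 for 33 genes and above 0 for 3, which covers counting error only. Past 2-fold lower lay 1 of 40 genes, against 10.5% of all 21104 genes.

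That gene was Fbxo5 (chr10:5799160-5805600), which encodes EMI1, an inhibitor of the anaphase-promoting complex; it had 49.8 CPM in haploid ESC, against 101 CPM in diploid ESC. Hmmr followed with 100 CPM in haploid ESC, against 183 CPM in diploid ESC, a log2 ratio of -0.87. Kif11 had 124 CPM in haploid ESC, against 206 CPM in diploid ESC, and Ube2c had 145 CPM in haploid ESC, against 240 CPM in diploid ESC; both log2 ratios were -0.73. Birc5 had 90.8 CPM in haploid ESC, against 149 CPM in diploid ESC (-0.72). The lowest 5 ratios thus belonged to genes of the spindle, of the passenger complex and of anaphase-promoting complex control. The genes of the spindle had the lowest median of the 8 roles in ESC, -0.65, and the checkpoint genes had -0.40. Cdk1 stood at 162 CPM in haploid ESC, against 200 CPM in diploid ESC, and Ccnb1 at 332 CPM in haploid ESC, against 419 CPM in diploid ESC. Mad2l1 was nearly equal, with 94.9 CPM in haploid ESC, against 97.2 CPM in diploid ESC, and so was Ccna2 (cyclin A2), with 185 CPM in haploid ESC, against 193 CPM in diploid ESC. On the other side, the kinetochore gene Nuf2 had 43.4 CPM in haploid ESC, against 35.7 CPM in diploid ESC, and Cenpf had 244 CPM in haploid ESC, against 206 CPM in diploid ESC. Cdc25b had 25.6 CPM in haploid ESC, against 22.3 CPM in diploid ESC. Nek2, a kinase of centrosome separation, had 102 CPM in haploid ESC, against 91.3 CPM in diploid ESC.

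These 2 ESC libraries also differed in Trp53 and Cdkn1a, both lower in haploid ESC, with log2 ratios from -3.71 to -1.08. That is the opposite direction to the EpiSC pair. Ploidy and these differences cannot be told apart in the ESC pair. Cell type markers differed as well. Fibroblast markers summed to 939 CPM in haploid ESC with all 10 detected, against 15.2 CPM in diploid ESC with 5 of 10 at 0, which is 1.56% and 0.0251% of the MEF sum. The shared pluripotency genes Pou5f1 and Sox2 summed to 717 CPM in haploid ESC, against 1320 CPM in diploid ESC, and the 6 naive markers to 1174 CPM in haploid ESC, against 2547 CPM in diploid ESC. The part of these differences in the mitotic ratios was not tested.

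Of the 40 genes, 35 had negative values in both haploid-to-diploid pairs, against 24.9% of all genes and 28.6% of genes averaging at least 20 CPM; the exceptions were Cdc25b, Nek2, Cenpf, Nuf2 and Pttg1. The EpiSC and ESC pairs share no library. The 40 genes can move together between libraries, so they are not independent observations of ploidy. Both wild-type EpiSC libraries are diploid, yet the male one exceeded the female one in 36 of the 40 genes. Ploidy was also estimated over all 9 pluripotent libraries, with cell type and p53 label as further terms. Both EpiLC libraries are haploid, so they give no ploidy contrast of their own. The fit reuses the libraries of both pairs and is not independent of them. It also takes the p53 label of haEpi1 and haEpi5 as given. Haploid libraries had lower values in it for 39 of 40 genes, against 48.4% of all genes, with a median log2 fold change of -0.31. The lowest values were those of Cenpe (-0.56), Fbxo5 (-0.54), Kif11 (-0.54) and Cdc20 (-0.47), and the highest was Nuf2 (0.04). edgeR called 0 of 40 genes and 0% of all genes (lowest adjusted p = 0.939); 2 genes had an unadjusted p under 0.05, Kif11 and Ttk, against 4.72% of all genes, and DESeq2 and limma called 0. Left without the diploid p53-KO EpiSC library, 33 of 40 values were negative in this fit. All 10 fibroblast markers had higher values in haploid libraries in the same fit (median log2 3.05; edgeR called 0, with 3 at an unadjusted p under 0.05), and their part in the mitotic values was not tested.

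The difference of the ploidy contrast, EpiSC labelled p53-KO minus ESC, was tested in a fit with 1 mean per group. No mitotic gene passed (edgeR 0 of 40, 0 with an unadjusted p under 0.05, DESeq2 0, limma 0), and edgeR called 0% of all genes, of which 6.97% had an unadjusted p under 0.05. Of the fibroblast markers, 9 of 10 had a negative difference (median -8.22; edgeR called 0), and their part was not tested. Trp53 and Cdkn1a both had positive differences, from 5.41 to 8.40 on the log2 scale, and their part was not tested. Among the 40 genes, the largest differences were -1.23 (SE 0.68) for Cenpf and 0.76 (SE 0.58) for Hmmr on the log2 scale. Cenpf was lower in haploid EpiSC but higher in haploid ESC beside their diploid libraries, and Hmmr was near equal in EpiSC and lower in haploid ESC. With standard errors of this size, the pairs are not shown to act alike.

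Set against wild-type diploid EpiSC instead, the libraries labelled haploid and p53-KO had lower values in 32 of 40 genes, with a smaller median of -0.15, against 51% of all genes. Here both sides have 2 libraries, but ploidy and p53 label change together, and Trp53 (log2 -1.06, SE 0.68) and Cdkn1a (-0.41, SE 0.42) overlapped between the sides. All 10 fibroblast markers had higher values in the haploid lines (median log2 1.14; edgeR called 0, with 4 at an unadjusted p under 0.05), and post-implantation epiblast markers had a median of -0.93; the part of these markers was not tested. edgeR called 0 of 40 genes and 0% of all genes (lowest adjusted p = 0.976); 1 gene, Cenpf, had an unadjusted p under 0.05, against 3.53% of all genes, and DESeq2 and limma called 0. Both haploid lines lay below both wild-type libraries in 13 of 40 genes, against 16% of all genes, and above both in 0. Cenpf had 137 CPM in haEpi1 and 74.9 CPM in haEpi5, against 170 CPM in female and 267 CPM in male wild-type EpiSC (log2 -1.04, SE 0.38). Cdc20 had 179 CPM in haEpi1 and 191 CPM in haEpi5, against 220 CPM in female and 414 CPM in male wild-type EpiSC (-0.77, SE 0.34). Wee1 had 50.9 and 50.6 CPM in haEpi1 and haEpi5, against 53.8 CPM in female and 72.2 CPM in male wild-type EpiSC. In these 3 genes the groups did not overlap, and the male library stood highest of the 4; for Wee1 the female library was close to the haploid lines. Birc5 (0.18) and Nuf2 (0.17) had the most positive values.

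Diploid p53-KO EpiSC lay on the other side of wild-type diploid EpiSC, with positive values in 35 of 40 genes and a median of 0.21; over all genes 55.3% of values were negative. edgeR called 0 of 40 genes and 0% of all genes with 0 members at an unadjusted p under 0.05, against 3.86% of all genes; DESeq2 and limma called 0. The diploid p53-KO library exceeded the female library in all 40 genes and both wild-type libraries in 26, against 31.1% of all genes. Bub1 had 268 CPM in diploid p53-KO EpiSC, against 151 CPM in female and 202 CPM in male wild-type EpiSC (log2 0.59, SE 0.31). Ndc80 had 55.8 CPM in diploid p53-KO EpiSC, against 39.5 CPM in female and 34.4 CPM in male wild-type EpiSC (0.58, SE 0.31). Anln had 268 CPM in diploid p53-KO EpiSC, against 152 CPM in female and 208 CPM in male wild-type EpiSC. Cdc20 had the lowest value, -0.28. Of the fibroblast markers, 8 of 10 had lower values in diploid p53-KO EpiSC (median log2 -1.02). Trp53 (log2 -5.77) and Cdkn1a (-4.75) were also lower there. The part of these differences in the mitotic values was not tested. The 3 EpiSC contrasts share libraries, so they are not independent of each other.

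In the single pair of haploid EpiLC libraries the p53-KO library had lower values than the wild-type library in 34 of 40 genes, against 48.4% of all genes, with a median log2 ratio of -0.29 and no test. Past 2-fold lower lay 1 gene, against 9.74% of all genes: Mad2l1 (chr6:66535390-66547220), with 89.7 CPM in p53-KO EpiLC, against 192 CPM in wild-type EpiLC (-1.10). The wild-type EpiLC value was the highest Mad2l1 level of the 10 libraries, and the p53-KO EpiLC value lay near those of ESC. Aurkb had 59.9 CPM in p53-KO EpiLC, against 103 CPM in wild-type EpiLC (-0.78). Incenp, the scaffold of the same complex, had 148 CPM in p53-KO EpiLC, against 250 CPM in wild-type EpiLC (-0.75). Plk1 had 123 CPM in p53-KO EpiLC, against 204 CPM in wild-type EpiLC (-0.73). Pttg1 was higher, with 60.2 CPM in p53-KO EpiLC, against 34.1 CPM in wild-type EpiLC (0.82), which was the lowest Pttg1 level of the pluripotent libraries. Cdc25c (0.27), Nek2 (0.21), Hmmr (0.13), Wee1 (0.11) and Ndc80 (0.06) were also higher in the p53-KO library. The counting interval lay below 0 for 29 genes and above 0 for 5. Trp53 and Cdkn1a were both lower in the p53-KO library, with log2 ratios from -3.43 to -3.26. The p53-KO EpiLC library kept 495 CPM of naive markers, against 63.9 CPM in wild-type EpiLC, and had 105 CPM of fibroblast markers, against 25.5 CPM in wild-type EpiLC; their part in these ratios was not tested.

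The p53 contrast had values of opposite sign between diploid EpiSC (median 0.21) and haploid EpiLC (median -0.29). The difference between these contrasts, EpiSC minus EpiLC, was positive in 35 of 40 genes with a median of 0.54, against a median of -0.18 over all genes. edgeR called 0 of 40 genes and 0% of all genes (lowest adjusted p = 0.448); 1 gene had an unadjusted p under 0.05, against 7.67% of all genes, and DESeq2 and limma called 0. That gene was Mad2l1 (1.54, SE 0.44), followed by Plk1 (1.15, SE 0.54), Bub1 (1.03, SE 0.48) and Cdc25b (1.02, SE 0.63). In the same difference 9 of 10 fibroblast markers were negative (median -3.65). All 6 naive markers were negative (median -3.20), and all 6 post-implantation epiblast markers were positive (median 1.09). The part of these markers was not tested. Over cell types, at given ploidy, the p53-KO label had a median of 0.03 with 19 negative values; edgeR, DESeq2 and limma called 0 of 40 genes, edgeR called 0% of all genes, and 0 members had an unadjusted p under 0.05, against 3.07% of all genes.

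Cell types were then compared in 1 fit with 1 mean per cell type, in which libraries of different ploidy and p53 label share a mean. Fibroblast markers also differed between the pluripotent types, summing to 373 to 1592 CPM in EpiSC and 105 and 25.5 CPM in p53-KO and wild-type EpiLC, against 939 and 15.2 CPM in haploid and diploid ESC; their part in the values was not tested. EpiSC had lower values than ESC in 29 of 40 genes, against 51.1% of all genes, with a median of -0.19. edgeR called 0 of 40 genes, whereas 16.9% of all 21104 genes passed; 3 members had an unadjusted p under 0.05, and DESeq2 and limma each called 1, Wee1. Wee1 (chr7:110122046-110143286) had 50.9 and 50.6 CPM in the EpiSC lines labelled haploid and p53-KO, 70.7 CPM in the diploid p53-KO line, and 53.8 and 72.2 CPM in the female and male wild-type lines, against 83.8 CPM in haploid and 99.3 CPM in diploid ESC. No EpiSC library reached the ESC range (log2 -0.64, SE 0.21; edgeR adjusted p = 0.0638). Espl1 was next, with 127 to 218 CPM over the 5 EpiSC libraries, against 238 CPM in haploid and 319 CPM in diploid ESC (-0.72, SE 0.25; edgeR adjusted p = 0.0762). Kif20a had a log2 fold change of -0.65 and Ccnb2 of -0.55. On the positive side stood Cdc25b (0.43) and Bub1 (0.39). Without the diploid ESC library the median of the 40 genes was 0.03.

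Between EpiLC and ESC the median was 0.16 with 13 of 40 values negative, against 52.6% of all genes. Genes averaging at least 20 CPM had a median of 0.12, close to that of the 40 genes. edgeR called 0 of 40 genes and 0.426% of all genes. 0 members had an unadjusted p under 0.05, and DESeq2 and limma called 0. Bub1 had 184 CPM in p53-KO and 250 CPM in wild-type EpiLC, against 121 CPM in haploid and 162 CPM in diploid ESC (log2 0.61, SE 0.33). Ttk had 98.1 CPM in p53-KO and 105 CPM in wild-type EpiLC, against 55.5 CPM in haploid and 79.3 CPM in diploid ESC (0.58, SE 0.29). In both genes the EpiLC libraries lay above both ESC libraries. The lowest value was that of Ccnb2 (-0.39). Without the haploid ESC library the median was -0.11, and with p53 label and ploidy as added terms it was 0.34 with 3 of 40 values negative.

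EpiSC had lower values than EpiLC in 35 of 40 genes, against 49.5% of all genes, with a median of -0.37. Ccnb1, cyclin B1, was the 1 gene that fell, against 5.88% of all genes. It had 230 and 265 CPM in the EpiSC lines labelled haploid and p53-KO, 336 CPM in the diploid p53-KO line, and 231 and 353 CPM in the female and male wild-type lines, against 465 CPM in p53-KO and 592 CPM in wild-type EpiLC. All 5 EpiSC libraries lay below both EpiLC libraries (log2 -0.92, SE 0.24; edgeR adjusted p = 0.0400). The call was lost without the wild-type EpiLC library (adjusted p = 0.220 by edgeR) and without any of 5 others, where the adjusted p was between 0.0521 and 0.0880. It was also lost with p53 label and ploidy as added terms (log2 -1.13; edgeR adjusted p = 0.0688), a setting in which the median of the 40 genes was -0.56; both EpiLC libraries are haploid, whereas the EpiSC are of both ploidies. Without the wild-type EpiLC library that median was -0.15. Top2a had 529 to 884 CPM over the EpiSC libraries, against 989 CPM in p53-KO and 1254 CPM in wild-type EpiLC (-0.73, SE 0.25; edgeR adjusted p = 0.0889). Fbxo5 (-0.69), Wee1 (-0.65) and Prc1 (-0.65) followed, and Pttg1 (0.36) and Cdc25c (0.29) had the most positive values.

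Mitotic genes passed the test most often against MEF. ESC had higher values than MEF in 39 of 40 genes, a median of 2.20-fold (log2 1.13, against 0.22 over all genes), and 15 of the 40 rose by edgeR, against 9.36% of all genes; 44.3% of all values were negative. EpiSC had higher values in the same number of genes, 39 of 40, a median of 1.94-fold (log2 0.96, against 0.11 over all genes, of which 44.3% were negative), and 11 rose, against 5.93% of all genes. The genes called in both were 10: Aurka, Bub1, Bub1b, Ccnb1, Cdca8, Ect2, Espl1, Fbxo5, Nek2 and Ttk. Hmmr, Kif11, Kif2c, Top2a and Wee1 passed in ESC alone and Cdc25c in EpiSC alone; these differences between comparisons were not tested, and both comparisons share the 1 MEF library. MEF lay below each of the 9 pluripotent libraries in 36 of 40 genes, against 22.6% of all genes, the exceptions being Cdc25b, Cenpe, Cenpf and Nuf2.

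**Figure D5:**
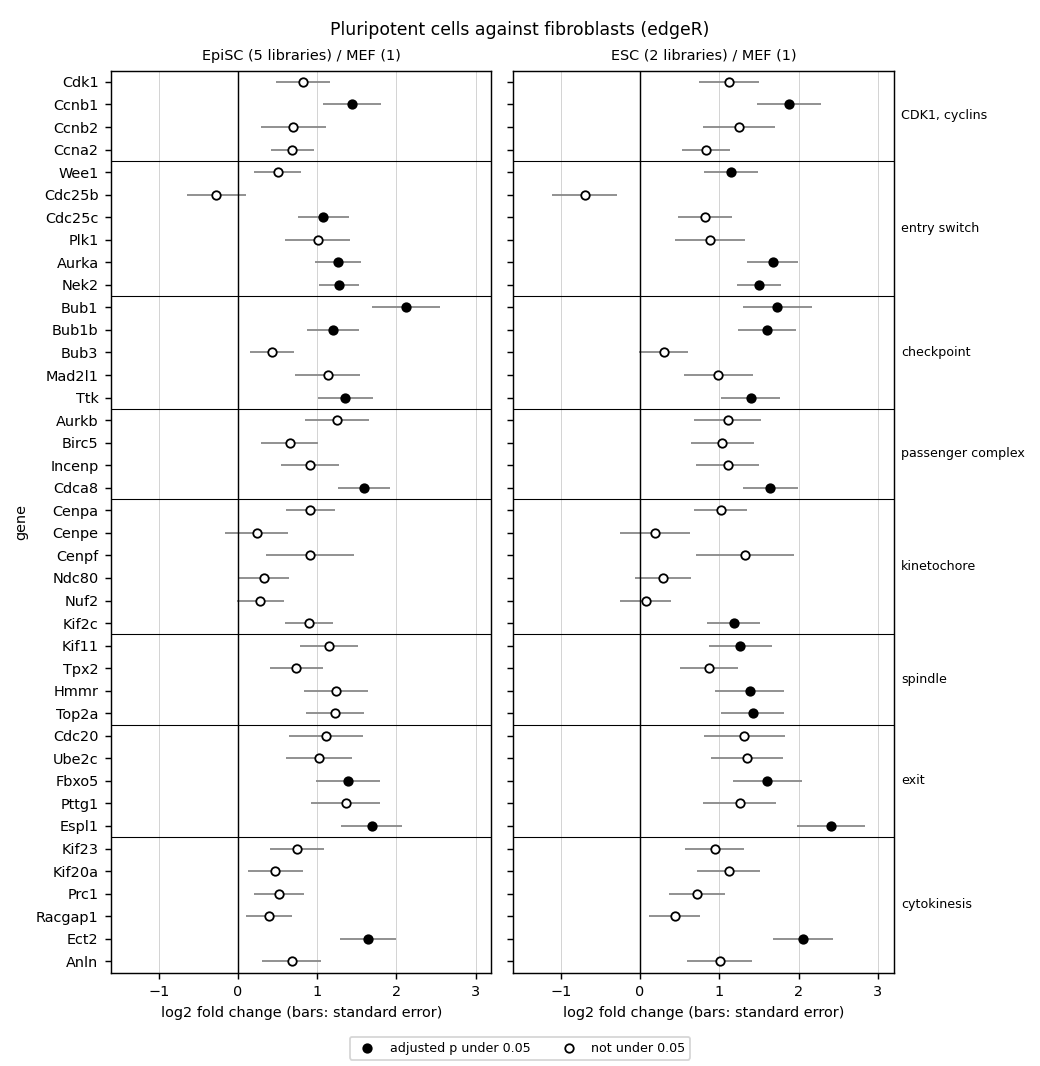
Log2 fold change of EpiSC over MEF (left) and of ESC over MEF (right) for the 40 genes by role, from edgeR's fit, with standard errors; filled points have an adjusted p under 0.05. Filled points number 11 on the left and 15 on the right, all right of 0, and Cdc25b is the only gene left of 0 in both panels.

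Espl1 (separase; chr15:102296266-102324357) had the largest value in ESC, with 238 CPM in haploid and 319 CPM in diploid ESC, against 52.7 CPM in MEF (log2 2.41, SE 0.43; edgeR adjusted p = 0.00579). Bub1 had the largest value in EpiSC, with 151 to 268 CPM over the 5 libraries, against 42.8 CPM in MEF (2.12, SE 0.42; edgeR adjusted p = 0.0105). Every library of these cells lay well above MEF in both genes. Ect2, the activator of the small GTPase RhoA at the cleavage site, had log2 fold changes of 1.65 in EpiSC and 2.06 in ESC, and Cdca8 (borealin) of 1.59 in EpiSC and 1.64 in ESC. Ccnb1, whose lowest pluripotent level was 230 CPM in haEpi1, against 103 CPM in MEF, rose by 1.44 in EpiSC and 1.88 in ESC on the log2 scale. All 5 exit genes had values of at least 1.03 in EpiSC and 1.26 in ESC. Of the kinetochore genes, Ndc80 had 34.4 to 57.4 CPM in the pluripotent libraries, against 33.2 CPM in MEF. Nuf2 had 35.7 to 56.0 CPM in the pluripotent libraries, against 37.5 CPM in MEF. In ESC over MEF their log2 values were 0.29 and 0.07, and that of Cenpe was 0.19. The rest of this role was higher, with Cenpa at 1.02, Kif2c at 1.18 and Cenpf at 1.33. Low values were not confined to this role, as Bub3 had 0.30 and Racgap1 0.44.

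Cdc25b (chr2:131186949-131198497) was the 1 gene with a negative value in both, with 22.8 to 42.9 CPM over the EpiSC libraries and 25.6 and 22.3 CPM in haploid and diploid ESC, against 38.9 CPM in MEF (log2 -0.27 in EpiSC and -0.70 in ESC; edgeR adjusted p = 0.675 in EpiSC and 0.237 in ESC). Its EpiSC libraries overlapped the MEF value and its ESC libraries lay below it. Cdc25c, the other phosphatase of the list, had 27.0 to 36.1 CPM over the EpiSC libraries, against 14.7 CPM in MEF, and rose by 1.08 on the log2 scale (edgeR adjusted p = 0.0495), close to the threshold. By promoter letters, the 24 genes with a CHR had a median of 1.29 in ESC over MEF, against 1.04 for the 9 without, and 1.02 in EpiSC over MEF, against 1.13 for the 9 without, so the order of these groups differed between the comparisons. The 26 genes with CCAAT had medians of 1.34 in ESC and 1.13 in EpiSC, against 1.01 in ESC and 0.68 in EpiSC for the 7 without. No test was made of these groups.

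Other cell cycle genes were read from 4 lists. Of 51 further mitotic genes, 40 had negative values in haploid against diploid EpiSC labelled p53-KO (median -0.32). In haploid against diploid ESC, 42 were negative (median -0.39). None passed the test in EpiSC. Nusap1, which bundles spindle microtubules, had log2 values of -0.90 in EpiSC (edgeR adjusted p = 0.897) and -1.24 in ESC. Of 32 S-phase genes, 26 were negative in EpiSC (median -0.22) and 29 in ESC (median -0.60), with Uhrf1, a maintenance factor of DNA methylation, at -1.60 in ESC. Beside the medians of the 40 genes, -0.41 in EpiSC and -0.32 in ESC, the S-phase list was thus nearer 0 in the EpiSC pair and further from 0 in the ESC pair, which was not tested. Of 30 genes of the anaphase-promoting complex, cohesin and condensin, 20 were negative in each pair, with medians of -0.29 in EpiSC and -0.12 in ESC. Of 13 DREAM and MYBL2 complex genes, 8 were negative in each pair. Over all genes, 46.3% of values were negative in the EpiSC pair and 46.4% in the ESC pair. Among genes averaging at least 20 CPM these shares were 49.9% and 52.3%. The DREAM and MYBL2 count is small and not far from these shares.

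Between cell types, 8 of 32 S-phase genes fell in EpiSC against EpiLC, against 5.88% of all genes (median -0.77), with Ccne1, the G1/S cyclin E1, at -1.40 (edgeR adjusted p = 0.00907) and Cdt1, a replication licensing factor, at -1.30 (edgeR adjusted p = 0.0107). Against MEF, 13 of 32 rose in EpiSC, against 5.93% of all genes, and 22 of 32 in ESC, against 9.36% of all genes. All 32 had positive values, Mcm10 among them with 2.41 in EpiSC and 3.04 in ESC. Of the other mitotic genes, 10 of 51 rose in EpiSC and 17 in ESC against MEF, where the same shares of all genes apply, with Ccnf (cyclin F) at 1.76 in EpiSC and 2.69 in ESC. Against ESC, 3 of these 51 fell in EpiSC, where 10.1% of all genes fell, among them Cep55, an abscission factor, at -1.28 (edgeR adjusted p = 0.0134). Mybl2, the gene of the transcription factor that activates late cell cycle genes, fell in EpiSC, with log2 fold changes of -2.50 against ESC (edgeR adjusted p = 0.00128) and -1.89 against EpiLC (edgeR adjusted p = 0.00817), where 0 of the 40 mitotic genes fell against ESC and 1 against EpiLC. Against MEF it rose by 1.84 in EpiSC and 4.34 in ESC.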

How the data were processed

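The RNA of the 10 libraries was purified on poly-T beads and prepared with a NEBNext kit, per the labels' protocols. The deposited counts are whole reads per gene; HISAT2 2.0.5, featureCounts 1.5.0-p3 and mm10 are named in the submitters' processing notes, and no strand setting is stated there or in the labels, so overlapping antisense genes cannot be told apart. The deposited FPKM equalled the authors' counts over gene length times 1 constant per library (largest relative deviation 1.66e-08). FPKM served only to compare levels between genes and in alternatives.

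The test on counts was that of edgeR 4.0.16 under R 4.3.3 (filterByExpr, TMM, quasi-likelihood F test, Benjamini-Hochberg over all genes tested, threshold 0.05). EpiSC contrasts used the 5 EpiSC libraries, additive and difference contrasts the 9 pluripotent libraries, and cell types all 10. Single pairs are log2 CPM ratios (TMM, prior count 2) with 95% counting intervals (exact binomial for ratios, Poisson for levels). Standard errors are the absolute log2 fold change over the square root of F. DESeq2 1.42.0, limma 3.58.1 on log2(FPKM + 1) and log2(FPKM + 0.1), no filter, DESeq2 size factors and left-out libraries were alternatives. The fits were tested on simulated data with changes of 2-fold or more and the same spread for every gene. Smaller shifts, such as the medians of the ploidy contrasts, were not simulated.

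Members, roles and lists were chosen with earlier results of these data known; the difference of the p53 contrasts was added after the values were seen. Named genes are the leads of each role and, per comparison, the 4 highest and 4 lowest values, of which examples are given, and up to 3 genes per other list; Bub3, Ccna2, Cenpe, Kif11 and a few others named beside them were chosen after their values were seen. The design text speaks of triplicates; 10 libraries were analysed.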

Additional observations from a re-analysis of the deposited data

How the results depend on the processing

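No named value that passed the test changed sign under any alternative. The count of 0 called genes held under every alternative in the 3 EpiSC contrasts, both additive contrasts, both differences of contrasts and EpiLC against ESC. For EpiSC against ESC the count was 1 (Wee1) instead of 0 with DESeq2 size factors, with DESeq2 and with limma at either pseudocount (FPKM + 1, FPKM + 0.1); leaving out a library gave 0 throughout. For EpiSC against EpiLC the count of 1 became 3 with DESeq2, 2 with limma at either pseudocount, 0 with p53 label and ploidy as added terms, and 0 to 2 with a library left out. For ESC against MEF the count of 15 became 7 without the diploid ESC library, and was 7 to 18 over the left-out libraries; for EpiSC against MEF the 11 became 8 to 15. The MEF library is single and cannot be left out there. In the ESC pair the 1 gene past 2-fold became 0 with DESeq2 size factors and 0 on log2(FPKM + 1). With p53 label and ploidy as added terms the medians of the 40 genes were 1.16 for EpiSC and 1.30 for ESC against MEF. The causes were not tested. Medians of the 40 genes with a library left out ran from -0.50 to -0.32 for ploidy in EpiSC labelled p53-KO, -0.40 to -0.22 for ploidy over cell types, -0.31 to -0.03 for the haploid lines against wild-type EpiSC, and 0.12 to 0.34 for diploid p53-KO against wild-type EpiSC. They crossed 0 for the p53 label over cell types (-0.11 to 0.22), the difference of the ploidy contrasts (-0.19 to 0.02), EpiSC against ESC (-0.40 to 0.03) and EpiLC against ESC (-0.11 to 0.30). Of 1105 values of named genes that did not pass the test, 41 had the other sign under an alternative. No paired analysis was possible because the labels give the groups no shared replicate numbers. Counting error was small at these depths; the number of libraries limits the tests.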
